A study of Apis mellifera with 24 samples.

Results

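The 2 genes described here are complementary sex determiner (csd, GB47022) and feminizer (fem, GB47020), the genes at the top of the honey bee sex determination pathway, chosen by gene identifier from the 15313 genes annotated in the count tables. In honey bees, an egg that carries different alleles of csd makes an active Csd protein and becomes female, whereas an egg with a single kind of allele, as in a haploid drone, becomes male. Active Csd directs female splicing of the fem transcript, and the Fem protein keeps its own transcript in the female form and directs female splicing of doublesex, a transcription factor that carries out sexual development. The genes encode related SR-type splicing proteins, and csd arose by duplication of fem. PIWI-interacting RNAs (piRNAs) are small RNAs that guide PIWI proteins in the germline, mainly against transposable elements (TEs). A piRNA that is antisense to a gene can pair with its transcript, whereas a sense piRNA has the sequence of the transcript itself.

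Small RNAs of honey bee (Apis mellifera) reproductive tissues were sequenced in 24 libraries: 8 of testes, 2 of semen, 8 of eggs, 3 of spermatheca and 3 of ovaries. Testes came from pupal drones of a single colony at 24, 72 and 144 h after the start of pupation, with 3, 2 and 3 libraries, and semen from adult drones. Eggs were taken less than 24 h after laying, with 2 libraries each from fertilised and unfertilised eggs of mated queens and from the worker cells and the drone cells of virgin queens, which had been narcotised with CO2 to make them lay. The spermatheca, the sperm storage organ of queens, and the ovaries came from adult laying queens, with 1 spermatheca library labelled as taken from 4 queens, so that a spermatheca library can hold RNA of queen and drone cells.

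The 4 count tables used here, for genes and for TEs in the sense and the antisense direction, hold 1 pooled column per tissue. Every value below is therefore a pooled value with no SD, and no difference between tissues could be checked against the spread of replicates. The intervals given are 95% intervals of counting error only, and PCR copies of the same molecule make the true error larger. Gene-antisense counts summed to 392409 in testes, 32551 in semen, 5045727 in eggs, 553655 in spermatheca and 3268356 in ovaries. Testes shared a flow cell with 1 spermatheca library and semen with the eggs of virgin queens, while neither testes, semen nor eggs shared one with ovaries, and testes shared none with eggs, nor semen with spermatheca. Tissue and sequencing run therefore cannot be told apart in any pair compared here. For spermatheca and ovaries, 2 of the 3 spermatheca libraries shared the flow cell of the ovaries, but the spermatheca column also pools the library that did not. Counts of piRNA-sized reads do not measure mRNA, so the tissue labels could not be checked against marker genes.

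Both genes lie on the + strand of chromosome 3 in the Amel 4.5 assembly. fem spans 11118557 to 11123186 (4.63 kb) and csd spans 11135135 to 11146488 (11.4 kb), with 11948 bp between them that hold the gene GB47021. Gene counts cover the whole span, introns and UTRs included. Because csd and fem are related in sequence, reads that match both cannot be assigned to either with certainty, and the number of such reads was not tested. Alleles of csd also differ in sequence among bees, and the effect of this on the mapping was not tested.

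piRNA-sized reads antisense to csd were found in eggs, spermatheca and ovaries, and none were found in testes or semen. The antisense counts of csd were 0 in testes, 0 in semen, 1598 in eggs (exact Poisson interval 1521 to 1678), 249 in spermatheca (219 to 282) and 2344 in ovaries (2250 to 2441). The antisense counts of fem were 0 in testes, 0 in semen, 12478 in eggs (12260 to 12699), 656 in spermatheca (607 to 708) and 8514 in ovaries (8334 to 8697). Both genes were thus at 0 in both male tissues and well above 0 in eggs and in both tissues of the queen.

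The depth of the male columns set how firmly these zeros could be read. With a count of 0, the Wilson upper limit of the share was 0.000979% of gene-antisense counts in testes and 0.0118% in semen. csd held 0.0717% of gene-antisense counts in ovaries (Wilson interval 0.0689 to 0.0747), and at that share it would have had 281 counts in testes and 23.3 counts in semen. fem held 0.260% in ovaries (0.255 to 0.266), which would correspond to 1022 counts in testes and 84.8 in semen. The testes column was thus deep enough to show either gene at a small part of its ovary share, and the semen column was shallower. The paper reports that a smaller part of piRNA-sized reads fell in piRNA clusters, regions dense in piRNAs, in testes and semen than in ovaries. The counts given at the ovary share make no allowance for this.

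Genes with many ovary piRNAs and no male ones were few. Of the 52 genes with at least 1000 antisense counts in ovaries, 4 had none in testes and none in semen, which is 7.69%. They were csd, fem, GB47021 and GB42260, the last on chromosome 14 with 87 antisense counts in eggs, 56 in spermatheca and 1324 in ovaries. At a minimum of 2000 ovary counts, 3 of 36 genes (8.33%) remained, and these were csd, fem and GB47021, which had 8257 antisense counts in eggs, 861 in spermatheca and 12107 in ovaries. In testes alone, 8 of the 52 genes and 7 of the 36 were at 0. Others came near 0 in both male tissues, such as GB42470, with 0 antisense counts in testes, 3 in semen and 35860 in ovaries. GB50405 had 2, 3 and 9227 in the same tissues. Both minimums were chosen after the counts of csd and fem had been seen. csd, fem and GB47021 are neighbours, and GB47021 and csd are both overlapped by the TE annotation ms8503.

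**Figure D1:**
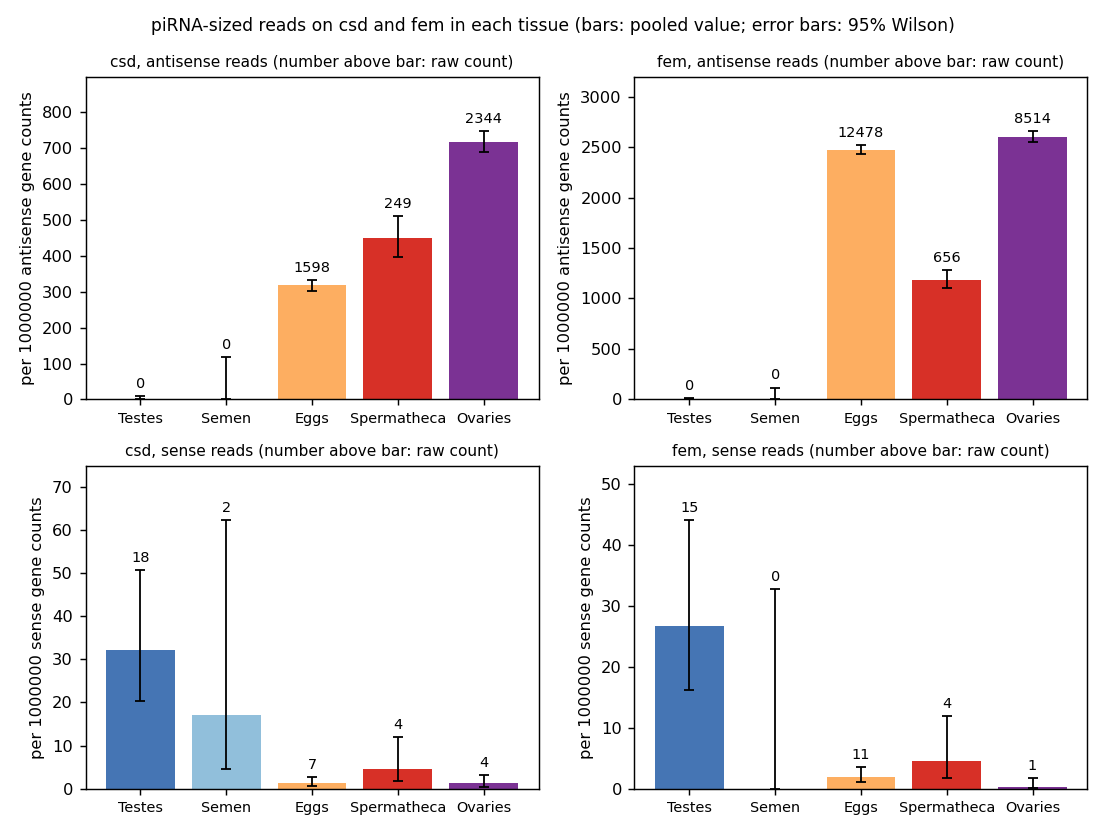
piRNA-sized reads on csd (left) and fem (right) per 1000000 gene-antisense counts (top) or gene-sense counts (bottom) of each tissue. Bars are pooled values, error bars are 95% Wilson intervals and the number above each bar is the raw count; antisense reads were at 0 in testes and semen, where the 18 sense reads of csd and 15 of fem in testes gave the tallest sense bars.

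Within the tissues that had them, reads on both genes were almost entirely antisense. Antisense reads made up 99.6% of csd reads in eggs (Wilson interval 99.1 to 99.8), 98.4% in spermatheca (96.0 to 99.4) and 99.8% in ovaries (99.6 to 99.9). For fem they made up 99.9% in eggs and 99.4% in spermatheca (98.5 to 99.8), and in ovaries 8514 of 8515 reads were antisense. A one-sided gene was common among those with many piRNAs: over 99% of reads were antisense in 27.2% of genes with at least 1000 counts in eggs, 20.6% in spermatheca and 25.6% in ovaries. In spermatheca csd and fem had fewer than 1000 counts themselves, so that they lie outside the genes behind that share.

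The few reads on csd and fem in the male tissues were sense. csd had 18 sense counts in testes, 2 in semen, 7 in eggs, 4 in spermatheca and 4 in ovaries. fem had 15 sense counts in testes, 0 in semen, 11 in eggs, 4 in spermatheca and 1 in ovaries. The antisense part of csd reads in testes was 0 of 18, with a Wilson upper limit of 17.6%, and that of fem was 0 of 15, with an upper limit of 20.4%. Having no antisense read at all was common for genes in these tissues, at 28.8% of genes with at least 10 counts in testes and 59.6% in semen, although csd and fem did not reach 10 counts in semen.

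As a share of all gene-sense counts, csd made up 0.00321% in testes (Wilson interval 0.00203 to 0.00507), 0.00171% in semen (0.000468 to 0.00622), 0.000128% in eggs (0.0000621 to 0.000265), 0.000463% in spermatheca (0.000180 to 0.00119) and 0.000123% in ovaries (0.0000477 to 0.000315). fem made up 0.00267% in testes (0.00162 to 0.00441), 0% in semen (upper limit 0.00328), 0.000201% in eggs (0.000112 to 0.000361), 0.000463% in spermatheca (0.000180 to 0.00119) and 0.0000307% in ovaries (0.00000541 to 0.000174). For both genes the interval in testes lay above those in eggs, spermatheca and ovaries and overlapped that in semen. These shares rest on the sense totals of each tissue, and no other scaling was tried for sense counts. In raw counts, fem had 15 in testes and 11 in eggs, and csd had 18 and 7. The sense reads of either gene were few in every tissue, and in testes they left csd at rank 1490 and fem at rank 1802 of the 9839 genes with any sense count.

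Among genes with any antisense count, csd and fem stood near the top in the egg and queen tissues. csd ranked 48 of 3389 by antisense count in eggs, 51 of 4681 in spermatheca and 34 of 3460 in ovaries. fem ranked 22, 34 and 24 in the same tissues. Per kb of gene span, csd had 141 antisense counts in eggs, 21.9 in spermatheca and 206 in ovaries, and ranked 69, 79 and 59. fem had 2695 per kb in eggs, 142 in spermatheca and 1839 in ovaries, and ranked 34, 41 and 33. fem thus had the denser antisense reads in all 3 tissues, by 19.1-fold per kb in eggs, 6.46-fold in spermatheca and 8.91-fold in ovaries.

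The balance between the genes differed among the tissues by more than the counting error. The ratio of csd to fem antisense counts, which does not depend on how tissues are scaled to each other, was 0.128 in eggs (0.122 to 0.135), 0.380 in spermatheca (0.328 to 0.439) and 0.275 in ovaries (0.263 to 0.288). csd thus took 11.4% of the antisense reads of both genes in eggs, 27.5% in spermatheca and 21.6% in ovaries, and none of the 3 intervals overlapped. Against the spread of replicates the order could not be tested. In raw counts, csd was lower in eggs than in ovaries, at a ratio of 0.682 (0.640 to 0.726), whereas fem was higher in eggs, at 1.47 (1.43 to 1.51), and all gene-antisense counts together stood at 1.54.

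A single short annotation inside fem had counts that equal most of the fem antisense count in eggs. The TE annotation overlaps fem with 7 elements, which cover 98.8% of its span and carry no class code, and csd with 6, which cover 63.0% of its span and of which 3 are coded as large retrotransposon derivatives (RXX-LARD) and 1 as an incomplete LINE (RIX-incomp). All but 1 of the 13, the short ms8532, are annotated on the - strand, so that reads antisense to csd or fem are in the sense direction of these elements. The TE tables were made separately from those for genes, and whether a read entered both was not given in the sources used here. Percentages of a gene's count on elements, and values with elements left out, take the reads of inside elements to be among the gene's reads.

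Within fem, ms8531 is an element of 151 bp at 11122441 to 11122591 on the - strand, 3.26% of the gene's span. It had 7717 counts antisense to fem in eggs, 230 in spermatheca and 2936 in ovaries, and 0 in testes and in semen. Those counts equal 61.8% of the fem antisense count in eggs (61.0 to 62.7), 35.1% in spermatheca (31.5 to 38.8) and 34.5% in ovaries (33.5 to 35.5). The density on ms8531 was 51106 counts per kb in eggs, 1523 in spermatheca and 19444 in ovaries, the highest of any element over fem or csd in each of these tissues.

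With the ms8531 counts subtracted, fem no longer had more counts in eggs than in ovaries. The egg to ovary ratio of raw counts was 2.63 on ms8531 (2.52 to 2.74). After the subtraction it was 0.854 for fem (0.821 to 0.887), from 4761 antisense counts in eggs, 426 in spermatheca and 5578 in ovaries. The subtraction takes every ms8531 read to be counted on fem as well, which was not tested. This split was chosen after the counts of ms8531 had been seen. It is not a clean cut, because at least 3418 of the fem antisense reads in eggs (27.4%), 319 in spermatheca (48.6%) and 4094 in ovaries (48.1%) were assigned to no element, although only 54 bases of the gene lie under none. Such reads may lie in those bases or across the edge of neighbouring elements. Where they lie was not tested.

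**Figure D2:**
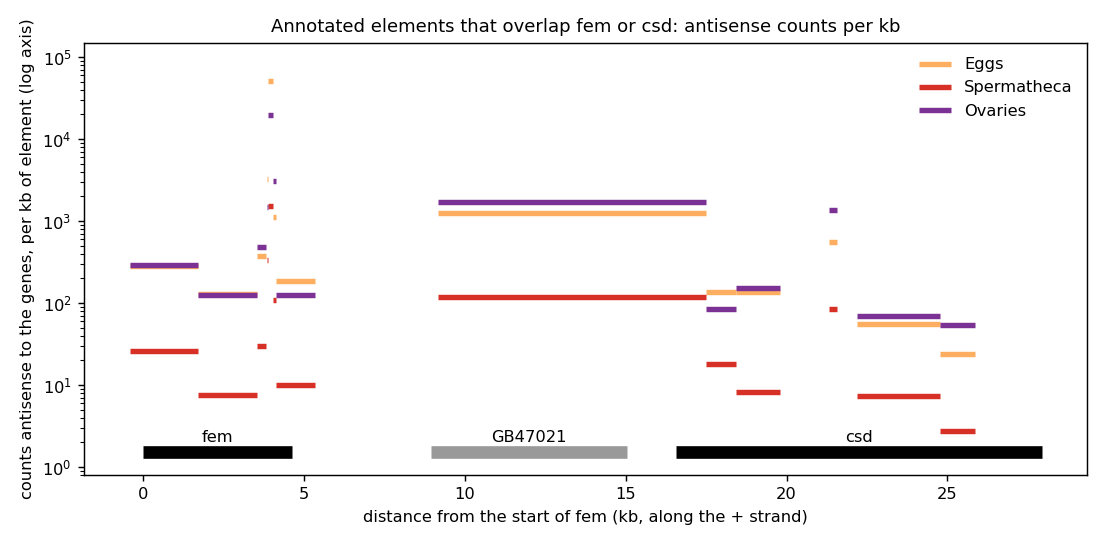
Counts antisense to fem and csd per kb of each overlapping TE annotation (log axis) against distance from the start of fem in kb, in eggs, spermatheca and ovaries; horizontal bars span the elements and the blocks at the foot are the genes, with testes and semen at 0 on every element. The narrow bars near 4 kb include ms8531, at 51106 counts per kb in eggs, 1523 in spermatheca and 19444 in ovaries.

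The elements ms8490, ms8504 and ms51617 over fem had egg to ovary ratios of raw counts nearer to 1 than that of ms8531. ms8490, which overlaps the start of the gene, had 593 counts antisense to it in eggs, 54 in spermatheca and 603 in ovaries. ms8504 had 238 in eggs, 14 in spermatheca and 233 in ovaries, and ms51617 had 102, 8 and 128. Their egg to ovary ratios were 0.983, 1.02 and 0.797. The short elements on either side of ms8531 were further from 1, in opposite directions. ms8530, on its far side, had 122 counts in eggs, 12 in spermatheca and 339 in ovaries, an egg to ovary ratio of 0.360. ms8532, at 21 bp shorter than a piRNA, had 69 counts in eggs, 7 in spermatheca and 31 in ovaries, a ratio of 2.23. ms8497, an element of 1194 bp over the end of the gene, had 219 in eggs, 12 in spermatheca and 150 in ovaries, a ratio of 1.46. All gene-antisense counts together stood at 1.54.

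Among the elements wholly inside csd, the densest was ms8529, a LARD of 270 bp at 11139866 to 11140135, with 151 antisense counts in eggs, 23 in spermatheca and 364 in ovaries. That is 9.45% of the csd antisense count in eggs, 9.24% in spermatheca and 15.5% in ovaries. ms8502 was the element of csd with more counts in eggs, at 128, than in ovaries, at 78, and had 17 in spermatheca. The remaining elements wholly inside csd had egg to ovary ratios of 0.887 (ms8505), 0.798 (ms8500) and 0.441 (ms8494). ms8503, of which 929 of 8324 bp overlap csd, had 10352 counts in eggs, 991 in spermatheca and 14232 in ovaries, and most of it lies outside csd.

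Counts on elements wholly inside fem equal 66.1% of its antisense count in eggs (65.3 to 66.9), 41.3% in spermatheca (37.6 to 45.1) and 43.1% in ovaries (42.0 to 44.1), over 51.7% of its span. For csd they equal 39.3% in eggs (36.9 to 41.7), 29.3% in spermatheca (24.0 to 35.3) and 37.7% in ovaries (35.7 to 39.7), over 54.8% of its span. Both genes thus had antisense reads assigned outside these elements in every tissue with antisense reads. With the elements wholly inside left out, the csd to fem ratio was 0.229 in eggs (0.214 to 0.246), 0.457 in spermatheca (0.382 to 0.546) and 0.301 in ovaries (0.284 to 0.320), and without ms8531 alone it was 0.336 (0.317 to 0.355), 0.585 (0.500 to 0.683) and 0.420 (0.400 to 0.441). The order of the tissues was kept under both, with the distance between eggs and ovaries reduced.

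**Figure D3:**
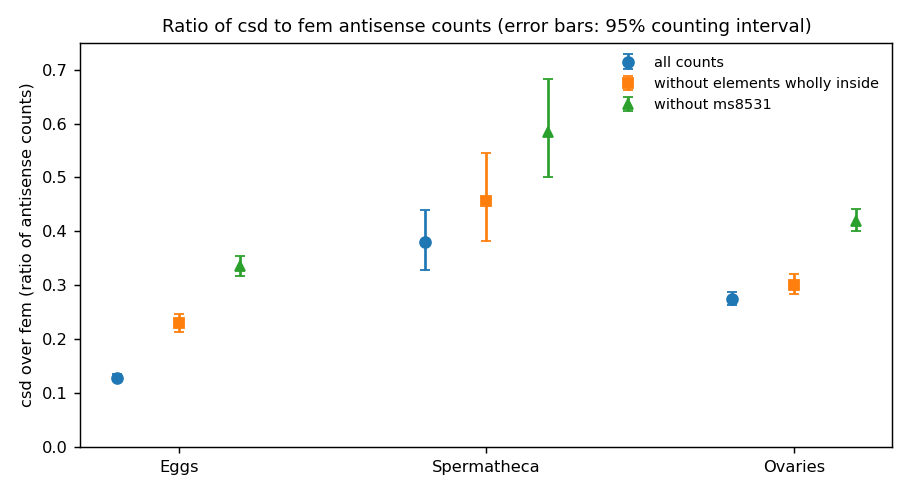
Ratio of csd to fem antisense counts in eggs, spermatheca and ovaries, from all counts, without the elements wholly inside the genes, and without ms8531. Points are pooled ratios and error bars are 95% counting intervals; eggs were lowest and spermatheca highest under each of the 3 choices.

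The sense reads of the testes did not follow ms8531. In testes it had 0 counts sense to fem, while ms8490 had 6, ms8504 had 3, ms51617 had 2 and ms8497 had 9. Among the elements that overlap csd, ms8503 had 13 testes counts sense to the gene, ms8500 had 4, ms8505 had 3 and ms8502 and ms8494 had 1 each. ms8490, ms8497 and ms8503 extend past the genes, so that their counts need not all lie on fem or csd. Elements wholly inside had 5 testes sense counts for fem, beside 15 on the gene, and 9 for csd, beside 18. In eggs, ms8531 had 6 sense reads, beside the 11 counted on fem.

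Folds between tissues were computed for 6 pairs, from antisense counts scaled by the trimmed mean of M values (TMM) for genes that reached 5 counts in either tissue of a pair, and a gene was called past 5-fold. A fold against a count of 0 was computed with 3 counts in the column in place of 0. It is a lower bound only within the scaling used, and the exact Poisson upper limit of 0 counts was higher, at 3.69. The scaling carries much weight in these tables. Relative to ovaries, TMM set the effective depth of testes at 1.62, whereas the totals of antisense counts set it at 0.120, and with totals the median gene was 4.06 higher in testes on the log2 scale. The leading gene, GB54876, alone held 40.2% of the antisense counts in eggs and 31.9% in ovaries, and GB43331 held 38.4% in spermatheca.

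In testes against ovaries with TMM, csd was lower by a bound of 1268-fold and fem by a bound of 4606-fold. Both counted among the 17.4% of 1793 genes that were lower past 5-fold with TMM, and also among the 2.79% that were lower past 5-fold with library totals. In semen against ovaries with TMM, csd was lower by a bound of 205-fold and fem by a bound of 746-fold. In this pair 16.9% of 1012 genes were lower past 5-fold with TMM, and 3.95% with library totals. In testes against eggs with TMM, csd was lower by a bound of 664-fold and fem by a bound of 5185-fold. In this pair 15.6% of 1838 genes were lower past 5-fold with TMM, and 2.18% with library totals. Across the 5 scalings tried, the bounds stayed past 5-fold for both genes in these 3 pairs, at 93.8 to 1465 for csd and 341 to 5321 for fem in testes against ovaries, at 7.78 to 781 and 28.3 to 2838 in semen against ovaries, and at 41.4 to 883 and 323 to 6892 in testes against eggs.

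In semen against spermatheca with TMM, csd was lower by a bound of 16.3-fold and fem by a bound of 42.9-fold. In this pair 5.07% of 1321 genes were lower past 5-fold with TMM, and 2.50% with library totals. The bound for fem was 12.9 to 219 over the scalings and that for csd 4.88 to 83.0, which left csd under 5-fold with library totals.

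In spermatheca against ovaries, csd was 11.1-fold lower (9.72 to 12.6) and fem 15.3-fold lower (14.1 to 16.5) with TMM, with 17.8% of 1615 genes lower past 5-fold. With library totals, csd was 1.59-fold lower and fem 2.2-fold lower, neither past 5-fold, as only 0.248% of genes were under that scaling. Both genes were lower in spermatheca under all 5 scalings, and the size of the difference was set by the scaling.

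In eggs against ovaries, csd was at 0.602 (0.565 to 0.641) and fem at 1.29 (1.26 to 1.33), and neither was past 5-fold, like most genes of this pair: 2.23% of 1121 genes were higher past 5-fold and 1.78% lower, or 3.12% lower with library totals. csd was lower in eggs under all 5 scalings, by 1.47 to 2.26-fold. The direction of fem turned with library totals, where it was 1.05-fold lower in eggs, and also without ms8531, where its TMM fold was 0.754 (0.725 to 0.783).

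**Figure D4:**
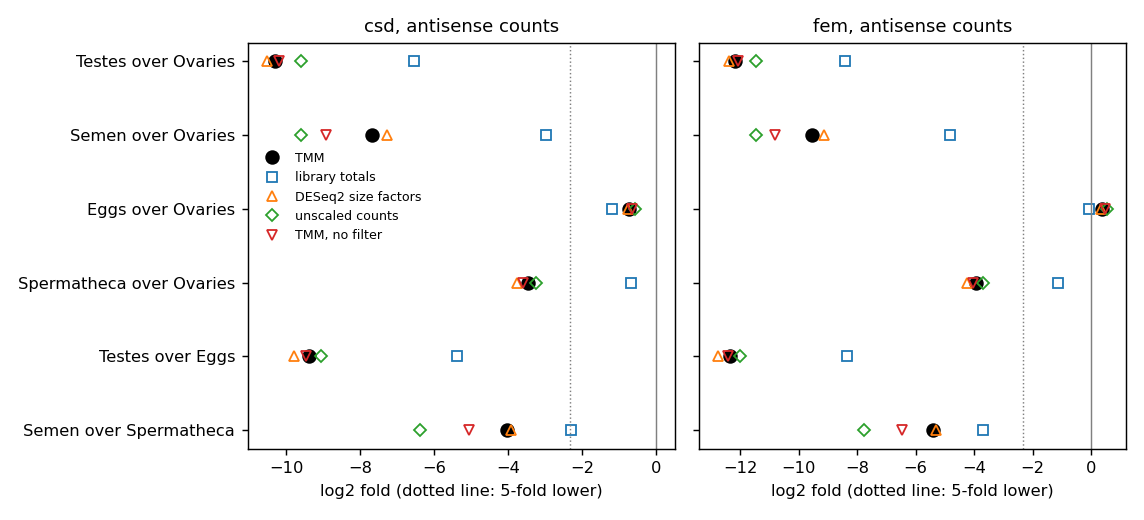
log2 fold of csd (left) and fem (right) antisense counts for 6 pairs of tissues under 5 scalings. The dotted line is at 5-fold lower and the solid line at no difference. Values with testes or semen were computed with 3 counts in place of 0 and are bounds only within their scaling. Library totals lie nearest to 0 in every pair for fem, and for csd in every pair except eggs against ovaries, where they lie furthest.

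The tissue profiles of csd and fem were compared with those of the 320 other genes with at least 100 antisense counts, by the total variation distance between shares of antisense counts per tissue, which is 0 for identical profiles and 1 for profiles with no tissue in common. The median distance from csd was 0.57. The 5 genes nearest to csd were GB50405 (0.016), GB45594 (0.019), GB48097 (0.027), GB51029 (0.028) and GB51441 (0.051), all highest in ovaries. GB50405 had 2 antisense counts in testes, 3 in semen, 6340 in eggs, 983 in spermatheca and 9227 in ovaries. Those nearest to fem were GB49396 (0.014), GB42470 (0.018), GB52253 (0.029), GB48733 (0.041) and GB48734 (0.049), and GB42470 had 0 in testes, 3 in semen, 51401 in eggs, 3017 in spermatheca and 35860 in ovaries. csd and fem were not among each other's nearest genes: at a distance of 0.18, fem was at place 41 from csd and csd at place 47 from fem. The distances rest on shares of library totals, and no other scaling was tried for them. The profile of fem without ms8531 was not compared.

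Few other sex determination genes could be looked at. Of 19 listed sex determination genes, 6 were found by symbol. Besides csd and fem these were doublesex (dsx, GB55036), transformer-2 (tra2, GB47305), extramacrochaetae (emc, GB42178) and sans fille (snf, GB54653). The planned search by product name was not run, so the other listed genes may be annotated under other symbols. Doublesex is the splicing target of Fem, tra2 is an RNA-binding cofactor of that splicing, and in Drosophila emc is a negative regulator in sex determination and snf is a spliceosomal protein needed for Sex-lethal splicing. None of these 4 had more than 2 antisense counts in any tissue, so that none reached the minimum of 5 counts and 0 of 4 could be compared. dsx had no antisense reads, and its sense counts were 8 in testes, 4 in semen, 27 in eggs, 12 in spermatheca and 0 in ovaries, over a span of 63802 bp. tra2 had sense counts of 51 in testes, 0 in semen, 18 in eggs, 35 in spermatheca and 8 in ovaries. Having no antisense reads was the common state of a gene: of the 15313 annotated genes, 3389 had any antisense count in eggs, 4681 in spermatheca and 3460 in ovaries.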

How the data were processed

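Small RNA libraries of 5 tissues were analysed as 4 deposited tables of raw counts, which the authors made with Rsubread (featureCounts) from reads of 26 to 31 nt mapped to Amel 4.5, after removal of other known RNAs. The published methods name CLC Genomics for mapping, and the submitters' processing notes list Bowtie 1.2.3. How libraries were combined into 1 column per tissue, and how reads with several positions or overlapping features were treated, is not given in the sources used here. Every column was assigned to its tissue by name, and none was left unused.

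Counts were used as deposited in Python 3.11.15 (SciPy 1.17.1, numpy 2.4.6, pandas 2.3.3), and plotted with matplotlib 3.10.9. Folds were computed in R 4.3.3 with the TMM factors of edgeR 4.0.16, a step run on simulated data. The simulated columns of a pair shared their composition apart from the changed genes. The simulation therefore did not test TMM on columns as unlike as those of these tissues. The planned tests between replicates could not be run with 1 column per tissue, and no p-value is given. The alternatives tried were size factors from DESeq2 1.42.0, scaling by library totals (sums of antisense gene counts), unscaled counts, no filter on low counts, counts per kb, shares without the leading gene, profiles with a minimum of 20 counts, and leaving out elements. The precision follows from the antisense counts of each tissue: the 3 counts used in place of 0 equal 0.000765% in testes, 0.00922% in semen and 0.0000918% in ovaries. The genes named were csd, fem, listed sex determination genes found by symbol, and for each member the 5 genes with the nearest tissue profile. GB47021, GB42260 and the elements were named after their values were seen. The members and lists were chosen with earlier results of these data known. Gene symbols came from RefSeq (Amel_HAv3.1), which matched 11390 of 15313 gene identifiers, and coordinates from the tables.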

Additional observations from a re-analysis of the deposited data

How the results depend on the processing

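Across 80 alternative values, 38 kept the direction and size of the value reported, 40 moved beyond the counting interval and 2 turned in direction. Some of these were bound to change: 3 ratios per kb, which change the unit, and 6 shares without the leading gene, which can only rise. Others were bound to stay, namely the antisense percentages in testes, from 0 antisense counts, and the other listed genes past 5-fold, none with 5 counts. Folds against 0 counts were judged with a wide half-width, of 1.63 or 1.64 on the log2 scale. The nearest profiles and the listed genes past 5-fold were judged by numbers of genes and not by a counting interval. With library totals the log2 folds of csd were -6.55 in testes over ovaries, -2.96 in semen over ovaries, -1.18 in eggs over ovaries, -0.67 in spermatheca over ovaries, -5.37 in testes over eggs and -2.29 in semen over spermatheca, and those of fem in the same order were -8.41, -4.82, -0.08, -1.14, -8.34 and -3.68. The egg to ovary value of fem (-0.08) turned in direction, as it did without ms8531 (-0.41), an alternative chosen after seeing the data. Unscaled counts gave csd -9.61 in semen over ovaries, -0.55 in eggs over ovaries, -3.23 in spermatheca over ovaries and -6.38 in semen over spermatheca, and fem -11.47, 0.55, -3.70 and -7.77. DESeq2 size factors gave -3.77 for csd and -4.23 for fem in spermatheca over ovaries. With no filter on low counts, csd was at -0.63 and fem at 0.47 in eggs over ovaries, and fem at -4.05 in spermatheca over ovaries. Without the leading gene of each tissue, the share of csd was 0.0530% in eggs, 0.0730% in spermatheca and 0.105% in ovaries, and that of fem 0.414%, 0.192% and 0.382%. Without the elements wholly inside, 100% of csd reads in spermatheca were antisense. The csd to fem ratio per kb was 0.0522 in eggs, 0.155 in spermatheca and 0.112 in ovaries; it was 0.229, 0.457 and 0.301 without elements wholly inside, and 0.336, 0.585 and 0.420 without ms8531. The causes of these shifts were not tested.

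No paired analysis was possible because the tables hold 1 pooled column per tissue, and leaving out each replicate in turn was not run for the same reason. Semen was the shallowest column, with 32551 gene-antisense counts, so that the limits on csd and fem are weakest there. Testes and eggs each pool several stages or kinds of egg, which cannot be told apart in the columns.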
